A study of Rattus norvegicus with 30 samples.

Results

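Growth hormone, insulin-like growth factor (IGF) and insulin signals meet in the liver cell, and the transcripts of 10 genes that carry them were followed in cultured rat hepatocytes given chlorpromazine. The genes were Ghr, Igf1, Igfals, Igfbp1, Igfbp2, Igfbp3, Socs2, Irs1, Irs2 and Insr, out of 14218 named genes on the array. Every probe set whose platform symbol was one of these names was taken, whatever its signal. This gave 15 probe sets. Of these, 12 probe sets of 7 genes passed a filter on dim signals and were tested among 21226 probe sets in all. Igfals, Socs2 and Irs1 did not pass that filter.

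The cells were frozen primary hepatocytes of male Sprague Dawley rats, thawed onto collagen and kept under a Matrigel overlay. From day 3 of culture they received the phenothiazine antipsychotic chlorpromazine hydrochloride at 0.8 µM or at 20 µM, or the vehicle alone (1% dimethyl sulfoxide), and RNA was taken 24 or 48 h later. Dosing solutions of every dose were made in dimethyl sulfoxide, and the labels of the treated samples give no final content of it. Each of the 6 combinations of dose and time had 5 cultures, each 1 well with its own array, so there were 30 arrays. Separate animals are not named in the labels, and the p-values therefore reflect variation among wells only. The labels do not state which hormones the culture medium held. Vehicle replicate 2 at 24 h is titled as 2 h and its time entry says 24 h. The time entry decided its group here.

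Growth hormone binds its receptor, encoded by Ghr, on the hepatocyte, and the receptor-bound kinase JAK2 activates the transcription factor STAT5b, which drives Igf1, Igfals and Socs2. Liver Igf1 supplies most of the IGF1 in blood, where it travels in a complex with an IGF binding protein (chiefly that of Igfbp3) and the acid-labile subunit encoded by Igfals. Igfbp1 encodes a binding protein that liver releases mainly when insulin is low, Igfbp2 encodes another hepatic binding protein, and Socs2 encodes a feedback inhibitor of the receptor. Insulin acts through its own receptor, Insr, and the docking proteins Irs1 and Irs2. Transcripts were measured here and protein was not.

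Promoter sequences are shown for the receptor, the ligand and the binding protein genes whose arrays are described most closely, to set the measured genes beside the elements through which these hormones are known to act. They run from 250 bases before to 50 bases after 1 annotated start site, in the RefSeq annotation of the rat assembly GRCr8. An entry existed for 8 of the 10 genes, and Socs2 and Irs2 had none. Capitals mark a match to CAAAACA, the core of the insulin response element. The Ghr promoter lies at chr2:54432026-54432325 on the minus strand, the Igf1 promoter at chr7:24172282-24172581 on the plus strand, the Igfbp1 promoter at chr14:86261027-86261326 on the plus strand and the Igfbp3 promoter at chr14:86277895-86278194 on the minus strand. The start sites used for Ghr and Igf1 lie inside the annotated spans of these genes.
Ghr: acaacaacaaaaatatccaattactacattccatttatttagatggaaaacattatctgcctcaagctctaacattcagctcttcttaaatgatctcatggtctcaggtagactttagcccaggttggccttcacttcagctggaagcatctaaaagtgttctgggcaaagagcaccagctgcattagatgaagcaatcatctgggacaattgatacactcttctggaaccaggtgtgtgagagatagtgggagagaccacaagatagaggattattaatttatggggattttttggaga
Igf1: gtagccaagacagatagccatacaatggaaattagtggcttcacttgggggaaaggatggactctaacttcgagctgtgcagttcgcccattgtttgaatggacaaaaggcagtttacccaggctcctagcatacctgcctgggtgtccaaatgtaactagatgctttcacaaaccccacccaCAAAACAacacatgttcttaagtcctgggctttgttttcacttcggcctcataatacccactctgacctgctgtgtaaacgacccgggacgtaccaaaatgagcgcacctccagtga
Igfbp1: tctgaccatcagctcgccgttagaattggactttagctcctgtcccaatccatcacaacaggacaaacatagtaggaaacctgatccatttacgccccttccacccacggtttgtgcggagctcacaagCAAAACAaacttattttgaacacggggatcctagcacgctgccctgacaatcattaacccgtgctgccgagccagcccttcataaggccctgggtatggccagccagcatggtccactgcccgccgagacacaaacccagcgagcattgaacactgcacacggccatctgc
Igfbp3: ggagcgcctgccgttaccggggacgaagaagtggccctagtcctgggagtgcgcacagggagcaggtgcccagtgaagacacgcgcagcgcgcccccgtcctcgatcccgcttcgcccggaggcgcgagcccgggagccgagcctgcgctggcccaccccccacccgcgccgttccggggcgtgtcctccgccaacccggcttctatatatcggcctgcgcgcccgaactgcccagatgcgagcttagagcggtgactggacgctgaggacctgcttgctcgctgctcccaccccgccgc

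Igf1 and Igfbp1 each held 1 match to CAAAACA on the strand of the gene, from base -67 to -61 before the Igf1 start and from -121 to -115 before the Igfbp1 start. On either strand, this motif was found in 6.28% of all 33469 promoters of that length. The promoter of Insr (chr12:6128754-6129053, minus strand) held 1 match to the FOXO core GTAAACA on the opposite strand at -100 to -94, a motif present in 3.78% of all promoters. Neither the STAT5 motif TTCNNNGAA (8.87% of all promoters) nor the ATF4 motif TGATGNAA (3.98%) was found in the 8 windows on either strand; no one of the 4 motifs searched contains another. Socs2 and Irs2 were not searched. With such shares over all promoters, the absence of a motif from 8 windows says little. A match is a stretch of letters, and binding was not measured. Igfbp1 (chr14:86261277-86266344) and Igfbp3 (chr14:86270208-86277944) are neighbours on opposite strands, 3.86 kb apart. GC content was 54.0% in the Igfbp1 window and 71.7% in the Igfbp3 window, with a median of 51.7% over all promoters.

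Over the whole array, 20 µM chlorpromazine changed 17.4% of the 21226 tested probe sets at 24 h and 26.9% at 48 h, by limma with adjusted p under 0.05 over all tested probe sets. Words such as rose, fell and changed are used in that sense. At 0.8 µM the shares were 0.283% at 24 h and 1.81% at 48 h. Hepatocyte markers were among the brightest transcripts: 7 of 8 were on the array and all 7 passed the filter. Their summed signal ran from 477342 to 598591 in 20 µM cultures and from 491092 to 618930 in vehicle cultures at 48 h. One of them, Fgb (fibrinogen beta chain), was lower at 20 µM and 48 h by -0.25 ± 0.09 (adjusted p = 0.0349). Since RNA was pooled from all cells of a well, fewer cells of a type and less RNA per cell cannot be told apart. Values below are log2 signals, and a change is a difference of log2 means ± SE with 5 arrays per group, a number that limits its precision.

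At 20 µM, 6 of the 12 tested probe sets changed at 24 h, 1 higher and 5 lower, beside the 17.4% of all probe sets. At 48 h, 8 changed, 3 higher and 5 lower, beside 26.9%. The 5 that fell were the same at both times, namely both probe sets of Ghr and all 3 of Igf1, and those that rose at 48 h read Igfbp2 and Igfbp3. Arrays of the 20 µM and vehicle groups did not overlap for 5 of the 12 at 24 h, against 13% of all probe sets, and for 7 of the 12 at 48 h, against 20.5%. Several probe sets read 1 gene, so these counts are not independent. Counting 1 leading probe set per gene, 2 of 7 genes changed at 24 h and 4 of 7 at 48 h, beside 22.2% and 33.5% of the 11503 genes. The median change over the 12 probe sets was -0.01 at 24 h and -0.24 at 48 h, and over all probe sets it was -0.01 and 0.01.

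**Figure D1:**
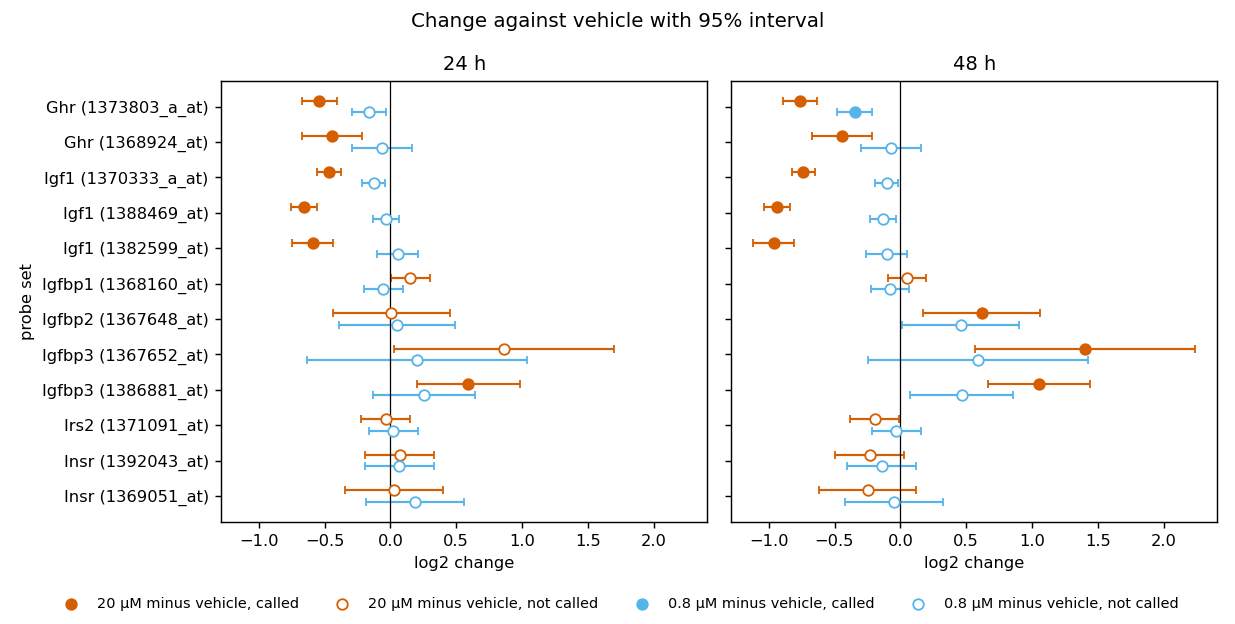
Log2 change against vehicle (x axis, with 95% interval) for each of the 12 tested probe sets (rows) at 24 h (left) and 48 h (right). Orange is 20 µM and blue is 0.8 µM; filled circles passed the test. The rows of Ghr and Igf1 lie left of 0 at 20 µM at both times, and those of Igfbp3 lie right of it.

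The growth hormone receptor transcript fell at 20 µM at both times. Ghr lies at chr2:54269066-54532595 (GRCr8), and 2 probe sets read it. By the brighter, 1373803_a_at, the 20 µM cultures had log2 signals of 11.50, 11.48, 11.39, 11.47 and 11.42 at 24 h, against 12.03, 12.12, 11.85, 11.93 and 12.02 in vehicle. At 48 h they had 11.22, 11.24, 11.25, 11.29 and 11.04, against 11.99, 12.10, 11.98, 11.92 and 11.85 in vehicle. Every 20 µM array lay below every vehicle array of its time. The change was -0.54 ± 0.07 at 24 h (1.45-fold lower, adjusted p = 2.92e-07) and -0.76 ± 0.07 at 48 h (1.70-fold lower, adjusted p = 8.70e-11).

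The dimmer Ghr probe set, 1368924_at, had 10.48, 10.38, 10.24, 10.37 and 10.34 at 20 µM and 24 h, against 10.67, 10.67, 10.51, 10.80 and 11.35 in vehicle. At 48 h it had 10.29, 10.39, 10.36, 10.59 and 10.50 at 20 µM, against 10.80, 11.07, 10.74, 10.88 and 10.87 in vehicle. The groups again did not overlap at either time, although vehicle replicate 5 at 24 h stood above its group. This probe set fell by 0.44 ± 0.12 at 24 h (adjusted p = 0.00632) and fell by 0.45 ± 0.12 at 48 h (adjusted p = 0.0035).

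Igf1, the gene of the growth factor itself (chr7:24169608-24249446), was among the brightest transcripts and also fell at 20 µM. Its leading probe set, 1370333_a_at, had a mean above 98.8% of all probe sets. It had 14.81, 14.83, 14.89, 14.92 and 14.92 at 20 µM and 24 h, against 15.31, 15.29, 15.43, 15.37 and 15.30 in vehicle. At 48 h the 20 µM cultures had 14.72, 14.57, 14.58, 14.47 and 14.52, against 15.26, 15.30, 15.27, 15.34 and 15.37 in vehicle. The gap between the groups exceeded the range within either group at both times. Igf1 fell by 0.47 ± 0.05 at 24 h (1.38-fold, adjusted p = 3.57e-09) and fell by 0.74 ± 0.05 at 48 h (1.67-fold, adjusted p = 2.93e-14).

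By 1388469_at, a second Igf1 probe set, the 20 µM cultures had 13.75, 13.72, 13.86, 13.91 and 13.98 at 24 h, against 14.36, 14.44, 14.55, 14.51 and 14.61 in vehicle. At 48 h they had 13.93, 13.87, 13.89, 13.89 and 13.77, against 14.78, 14.87, 14.73, 14.79 and 14.86 in vehicle. The 20 µM arrays were lower without overlap, with changes of -0.65 ± 0.05 at 24 h (adjusted p = 3.86e-11) and -0.94 ± 0.05 at 48 h (adjusted p = 1.26e-15). The third and dimmest, 1382599_at, ranged from 11.50 to 11.72 at 20 µM and from 11.97 to 12.38 in vehicle at 24 h. At 48 h its range was 11.45 to 11.88 at 20 µM and 12.52 to 12.69 in vehicle. Its changes were -0.59 ± 0.08 at 24 h (adjusted p = 1.17e-06) and -0.96 ± 0.08 at 48 h (adjusted p = 2.40e-11).

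Among all tested probe sets, a lower change than that of the leading Igf1 probe set was seen for 8.50% at 24 h and 4.88% at 48 h. For the leading Ghr probe set these shares were 6.40% and 4.48%. The falls of Ghr and Igf1 thus lay in the lower tail of the array, with many other transcripts below them.

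**Figure D2:**
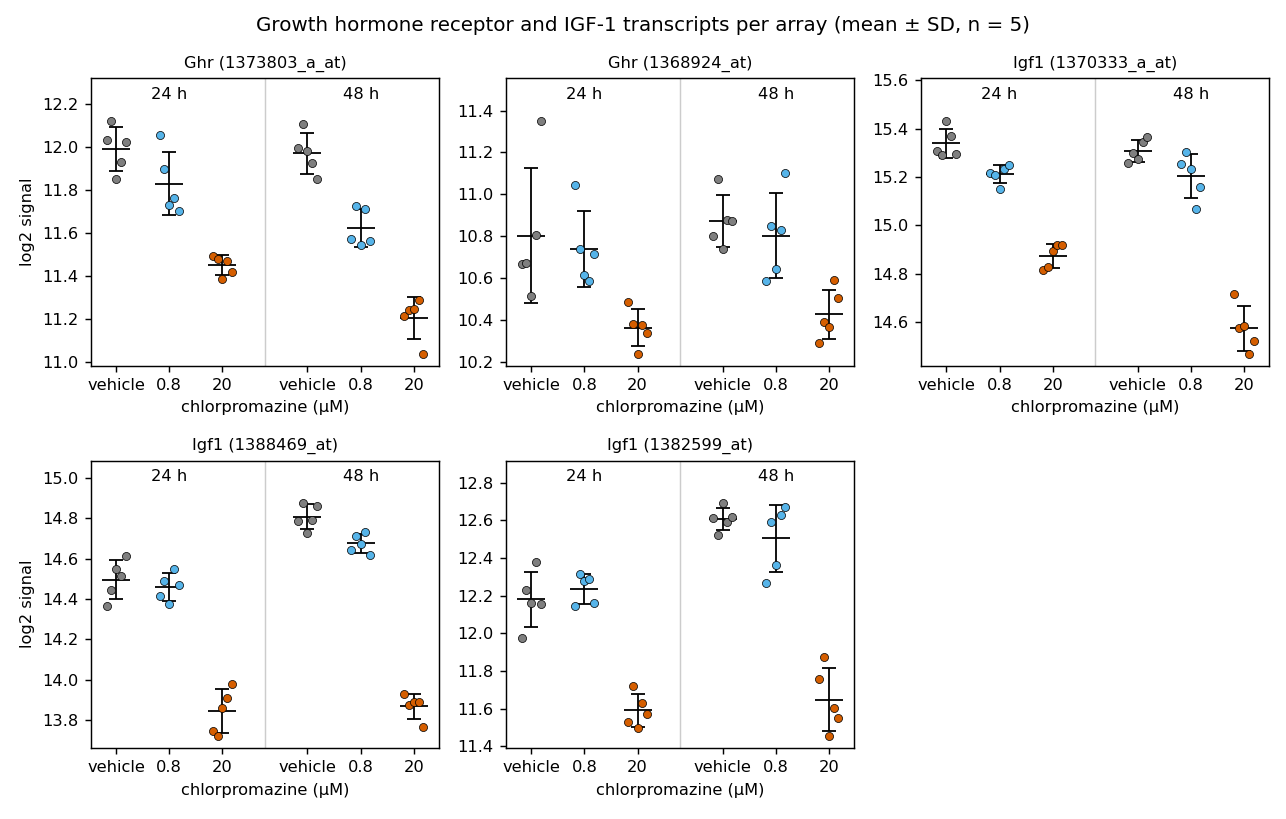
Log2 signal per array (y axis) of the 2 Ghr and 3 Igf1 probe sets by chlorpromazine dose (x axis, µM) at 24 and 48 h. Points are arrays and bars are mean ± SD (n = 5). In every panel the 5 arrays at 20 µM lie below the 5 vehicle arrays of the same time.

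The 20 µM effect on Igf1 was larger at 48 h than at 24 h by 2 of its 3 probe sets. The difference of the effects was -0.27 ± 0.06 for 1370333_a_at (-0.74 at 48 h and -0.47 at 24 h, adjusted p = 0.015) and -0.29 ± 0.07 for 1388469_at (-0.94 and -0.65, adjusted p = 0.0219). It was -0.37 ± 0.11 for 1382599_at (-0.96 and -0.59, adjusted p = 0.0745) and -0.22 ± 0.09 for the leading Ghr probe set (-0.76 and -0.54, adjusted p = 0.27), neither of which passed. These 2 of 12 stand beside 2.72% of all probe sets. The call for 1388469_at was lost when each array was centred on its median (adjusted p = 0.0597), without the trend of the spread (0.0575), and without 20 µM replicate 5 at 24 h (0.0509) or at 48 h (0.054).

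The Igf1 probe sets did not move alike with time in culture. In vehicle, 1388469_at was higher at 48 h than at 24 h by 0.31 ± 0.05 (adjusted p = 7.53e-05) and 1382599_at by 0.43 ± 0.08 (adjusted p = 0.000398), while the leading 1370333_a_at differed by -0.03 ± 0.05 (adjusted p = 0.771). At 20 µM the leading probe set was lower at 48 h (-0.30 ± 0.05, adjusted p = 2.16e-05), and the other two differed by 0.03 and 0.06 (adjusted p = 0.859 and 0.786). In vehicle these 2 of 12 stand beside 8.93% of all probe sets. At 20 µM, 3 of 12 changed between the times, beside 7.34%, the others being Insr 1392043_at, described with the insulin receptor, and Ghr 1373803_a_at (-0.24 ± 0.07, adjusted p = 0.0191). Without 20 µM replicate 5 at 48 h, that Ghr difference was -0.20 and did not pass (adjusted p = 0.0767). The 3 probe sets come from different source sequences, and which transcript forms each reads was not analysed here.

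That disagreement was tested per array as the log2 difference between 2 probe sets, in 5 comparisons chosen after the values had been seen. In vehicle, 1388469_at minus 1370333_a_at lay between -0.55 and -0.43 at 48 h and between -0.95 and -0.68 at 24 h, a shift of 0.34 (exact permutation test, two-sided, p = 0.00794, the smallest that 5 against 5 arrays allow, and 0.0132 after adjustment over the 5). For 1382599_at against the leading probe set the shift was 0.46 with the same p-values. At 20 µM the corresponding shifts were 0.33 (exact p = 0.00794, adjusted p = 0.0132) and 0.36 (exact p = 0.0159, adjusted p = 0.0159). The difference between 20 µM and vehicle had the same direction in all 3 probe sets at both times.

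None of the 3 tested binding protein genes fell. Igfbp1 gave 1 of the brightest signals of the array, with a mean above 99.9% of all probe sets, and did not pass the test at either time. The 20 µM cultures had 16.29, 16.08, 16.50, 16.54 and 16.61 at 24 h, against 16.20, 16.14, 16.42, 16.22 and 16.28 in vehicle. At 48 h they had 16.46, 16.22, 16.32, 16.39 and 16.36, against 16.28, 16.10, 16.33, 16.38 and 16.41 in vehicle. The groups overlapped at both times, and 3 of the 5 arrays at 20 µM and 24 h lay above all vehicle arrays. The change was 0.15 ± 0.07 at 24 h (95% interval 0.01 to 0.30, adjusted p = 0.181) and 0.05 ± 0.07 at 48 h (-0.09 to 0.20, adjusted p = 0.682). By limma the unadjusted p at 24 h was 0.0506, so that interval excludes 0 without a passed test. Under quantile normalization the change at 24 h passed the test (0.17, adjusted p = 0.0037), as it did without 20 µM replicate 2 (0.23, adjusted p = 0.0127).

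Igfbp3, which encodes the main carrier of IGF1 in blood, rose at 48 h by both of its probe sets. By 1386881_at the 20 µM cultures had 9.52, 9.57, 9.34, 8.96 and 9.70 at 48 h, against 8.49, 8.23, 8.66, 8.21 and 8.21 in vehicle. The groups did not overlap, and the rise was 1.05 ± 0.20 (2.08-fold, adjusted p = 9.08e-05). By the leading probe set, 1367652_at, they lay between 9.86 and 10.59 with a median of 10.10, against 9.46, 7.04, 9.21, 8.72 and 9.33 in vehicle. Here vehicle replicate 2 lay far below its group. The rise was 1.40 ± 0.43 (2.65-fold, adjusted p = 0.0123), and without that array it was 0.98 and no longer passed (adjusted p = 0.0706). With all arrays, 0.514% of all probe sets had a higher change than this one at 48 h, and 1.34% had a higher change than 1386881_at.

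At 24 h the Igfbp3 arrays overlapped. By 1386881_at the 20 µM cultures had 9.11, 9.41, 8.97, 9.66 and 9.14, against 8.80, 9.48, 8.27, 8.41 and 8.37 in vehicle, a rise of 0.59 ± 0.20 (adjusted p = 0.0346). This call was lost without any one of 5 arrays (20 µM replicates 2 and 4, vehicle replicates 3, 4 and 5), where the change was 0.49 to 0.55 with adjusted p of 0.0726 to 0.117. It was also lost with no filter on dim probe sets, with array weights and with only the 2 groups in the fit. The leading probe set had 9.27, 9.04, 9.60, 9.94 and 9.55 at 20 µM, against 9.06, 9.65, 8.83, 8.68 and 6.88 in vehicle, and its difference of 0.86 ± 0.43 did not pass (adjusted p = 0.186).

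In liver, Igfbp3 is known to be made largely by non-parenchymal cells, so the markers of such cells are given beside it. The 5 tested Kupffer cell markers (of 6 listed) had a summed signal of 3602 to 4641 at 20 µM and 48 h, against 2833 to 3605 in vehicle. Of them Cd68, a lysosomal protein, was higher by 1.44 ± 0.13 (adjusted p = 8.20e-11) and C1qa, a complement subunit, differed by -0.33 ± 0.12 (adjusted p = 0.0319). The other 3 did not pass, and the median change of the 5 was -0.22. The higher sum is thus not shared by the list as a whole. Stellate cell markers (5 of 6 tested) summed to 2426 to 3010 at 20 µM against 2387 to 3013 in vehicle, endothelial markers (4 of 6) to 1084 to 1435 at 20 µM against 960 to 1826 in vehicle, and bile duct markers (2 of 4) to 11166 to 12370 at 20 µM against 10634 to 11989 in vehicle. The bile duct sum is almost all Epcam (mean log2 13.34, against 7.80 for Krt19). No tested marker of the stellate, endothelial and bile duct lists changed at 48 h, beside 33.5% of the 11503 genes. Lrat, Vwf and Krt7 did not pass the filter. The tested markers were few and some were dim (mean log2 7.24 for Stab2 and 7.90 for Pecam1), so changes could be missed. At 24 h, the bile duct marker Krt19 changed by -1.28 ± 0.35 (adjusted p = 0.00889), and no other tested marker of the 4 lists passed, beside 22.2% of all genes. The part of such cells in the Igfbp3 result was not tested.

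Igfbp2 (chr9:81864811-81892179) was called higher at 48 h with overlapping arrays. The 20 µM cultures had 8.50, 9.24, 9.33, 9.07 and 9.57, against 8.95, 8.48, 7.84, 8.50 and 8.84 in vehicle, a rise of 0.62 ± 0.23 (1.54-fold, adjusted p = 0.0401). Leaving out any one of 7 arrays (20 µM replicates 2, 3, 4 and 5, vehicle replicates 2, 3 and 4) ended the call, with changes of 0.45 to 0.64 and adjusted p of 0.0548 to 0.159. It was also lost with no filter on dim probe sets (adjusted p = 0.0629) and with only the 2 groups in the fit (adjusted p = 0.0698). At 24 h they had 9.48, 9.19, 9.31, 8.28 and 9.12, against 9.14, 9.43, 9.26, 8.67 and 8.84 in vehicle. That difference was 0.01 ± 0.23 (adjusted p = 0.99).

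Igfals, the acid-labile subunit gene (chr10:14397076-14408439), was dim throughout. Its probe set exceeded the 40th percentile of the array on 0 of 30 arrays, and its mean log2 signal was 5.71. It ranged from 5.20 to 6.14 at 20 µM and from 5.40 to 6.57 in vehicle at 24 h, and from 4.87 to 5.95 at 20 µM and from 5.51 to 6.06 in vehicle at 48 h. These signals allow no statement on its direction.

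**Figure D3:**
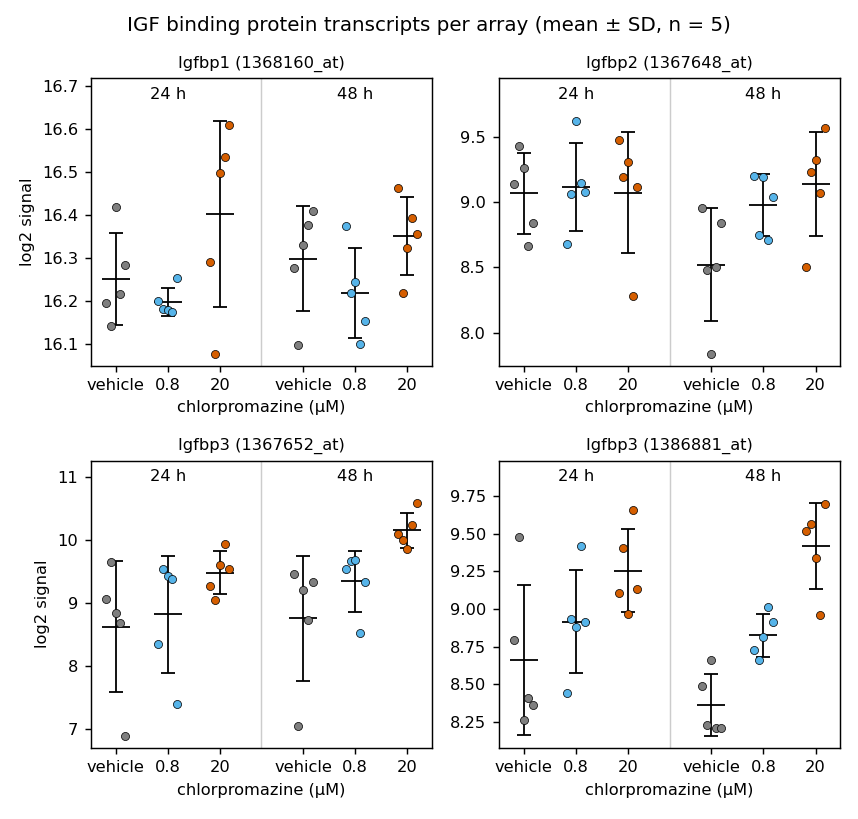
Log2 signal per array (y axis) of Igfbp1, Igfbp2 and the 2 Igfbp3 probe sets by chlorpromazine dose (x axis, µM) at 24 and 48 h, with mean ± SD (n = 5). At 48 h the 20 µM arrays of both Igfbp3 probe sets lie above all vehicle arrays, and those of Igfbp1 and Igfbp2 overlap them.

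The insulin receptor and Irs2 did not pass the test against vehicle. The brighter Insr probe set, 1392043_at (gene at chr12:5991135-6129275), had 10.83, 10.39, 10.46, 10.45 and 10.29 at 20 µM and 48 h, against 10.64, 10.79, 10.49, 10.62 and 11.02 in vehicle. At 24 h it had 11.23, 10.86, 10.79, 10.79 and 10.97 at 20 µM, against 10.99, 10.96, 10.86, 10.62 and 10.86 in vehicle. The groups overlapped at both times. The change was -0.23 ± 0.13 at 48 h (95% interval -0.50 to 0.03, adjusted p = 0.225) and 0.07 ± 0.13 at 24 h (-0.19 to 0.33, adjusted p = 0.796). Within the 20 µM cultures this probe set was lower at 48 h than at 24 h (-0.45 ± 0.13, adjusted p = 0.0366), with overlapping arrays. That call was lost without any one of 7 arrays (replicates 2, 3, 4 and 5 at 48 h, replicates 1, 2 and 5 at 24 h), with changes of -0.46 to -0.37 and adjusted p of 0.0509 to 0.126, as well as with no filter (0.0537) and without the trend (0.0582).

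The dimmer Insr probe set, 1369051_at, ranged from 7.92 to 8.71 at 20 µM and from 8.02 to 9.10 in vehicle at 48 h, and from 8.20 to 8.71 at 20 µM and from 8.28 to 8.69 in vehicle at 24 h. It differed by -0.25 ± 0.19 at 48 h (adjusted p = 0.381) and by 0.03 ± 0.19 at 24 h (adjusted p = 0.954). Irs2, the docking protein gene at chr16:85190310-85214543, had 10.46, 10.26, 10.33, 10.49 and 10.47 at 20 µM and 48 h, against 10.41, 10.59, 10.46, 10.78 and 10.76 in vehicle. At 24 h it had 10.53, 10.51, 10.21, 10.52 and 10.61 at 20 µM, against 10.49, 10.69, 10.37, 10.34 and 10.67 in vehicle. The groups overlapped at both times, more so at 24 h. The difference was -0.20 ± 0.10 at 48 h (-0.38 to -0.01, adjusted p = 0.137) and -0.04 ± 0.10 at 24 h (-0.22 to 0.15, adjusted p = 0.865). The lower bounds of these intervals lie above the Ghr and Igf1 changes at 48 h by their leading probe sets, as does that of the brighter Insr probe set. The dimmer Ghr probe set changed by -0.45 at 48 h. That value lies inside the 48 h intervals of both Insr probe sets (-0.50 to 0.03 and -0.62 to 0.12). The genes were not tested against each other.

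Irs1 and Socs2 were too dim to test. Irs1 (chr9:91001137-91053959) exceeded the 40th percentile on 3 of 30 arrays, and ranged from 7.03 to 7.93 at 20 µM and from 7.11 to 8.38 in vehicle at 48 h. At 24 h it ranged from 6.86 to 8.47 at 20 µM and from 7.51 to 8.04 in vehicle. Socs2 (chr7:31890564-31932092), the STAT5 target and feedback inhibitor, exceeded that percentile on 0 arrays and lay at the floor on 1. It ranged from 4.75 to 6.16 at 20 µM and from 4.92 to 7.08 in vehicle at 48 h, and from 4.14 to 6.65 at 20 µM and from 4.64 to 6.43 in vehicle at 24 h.

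**Figure D4:**
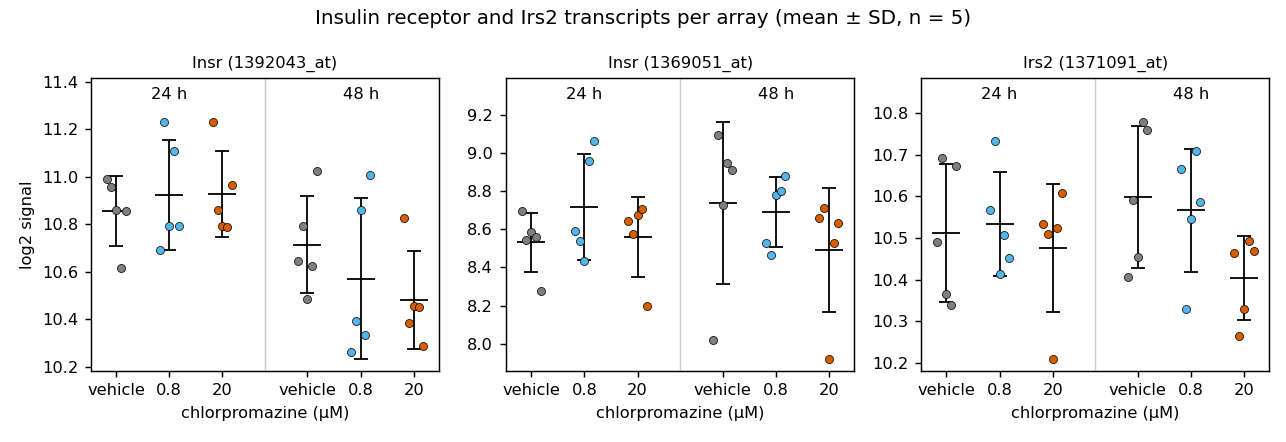
Log2 signal per array (y axis) of the 2 Insr probe sets and Irs2 by chlorpromazine dose (x axis, µM) at 24 and 48 h, with mean ± SD (n = 5). The arrays at 20 µM overlap the vehicle arrays in every panel at both times.

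At 0.8 µM, 1 of the 12 probe sets changed at 48 h, beside 1.81% of all, and 0 changed at 24 h by limma, beside 0.283%. At an unadjusted p under 0.05 there were 2 at 24 h, beside 10% of all probe sets, and 4 at 48 h, beside 12.7%. The one called at 48 h was the leading Ghr probe set, with 11.57, 11.72, 11.54, 11.71 and 11.56 at 0.8 µM, against 11.99, 12.10, 11.98, 11.92 and 11.85 in vehicle. All 0.8 µM arrays lay below all vehicle arrays, and Ghr fell by 0.35 ± 0.07 (1.27-fold, adjusted p = 0.00333). The dimmer Ghr probe set did not follow it, with 10.59, 10.85, 10.64, 10.83 and 11.10 at 0.8 µM and a difference of -0.07 ± 0.12 (adjusted p = 0.887). The per-array difference between the 2 probe sets shifted by -0.28 between 0.8 µM and vehicle (exact permutation p = 0.0159, adjusted p = 0.0159, among the 5 comparisons chosen after the values had been seen).

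Igf1 differed little at 0.8 µM. Its leading probe set had 15.22, 15.21, 15.15, 15.23 and 15.25 at 24 h, below every vehicle array, with a difference of -0.13 ± 0.05 that did not pass (adjusted p = 0.281). At 48 h the differences of the 3 Igf1 probe sets lay between -0.13 and -0.10 (adjusted p of 0.214 to 0.67). Igfbp3 differed by 0.46 ± 0.20 (1386881_at, adjusted p = 0.292) and 0.59 ± 0.43 (1367652_at, adjusted p = 0.636) at 48 h, and Igfbp2 by 0.46 ± 0.23 (adjusted p = 0.40).

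Set against 0.8 µM, the 20 µM cultures had 5 lower probe sets of 12 at 24 h, beside 11% of all, and 5 lower and 1 higher at 48 h, beside 19.8%. The 5 were again those of Ghr and Igf1. The leading Igf1 probe set differed by -0.63 ± 0.05 at 48 h (adjusted p = 2.80e-12) and by -0.34 ± 0.05 at 24 h (adjusted p = 2.87e-06), and the leading Ghr probe set by -0.42 ± 0.07 at 48 h (adjusted p = 1.45e-05) and -0.38 ± 0.07 at 24 h (adjusted p = 0.000149). The higher one was Igfbp3 1386881_at, by 0.59 ± 0.20 (adjusted p = 0.0315), with overlapping arrays. The arrays of the dimmer Ghr probe set touched at 48 h, with the highest at 20 µM and the lowest at 0.8 µM both at 10.59. The other Ghr and Igf1 comparisons of the 2 doses had no overlap. Igfbp3 1367652_at had none at 48 h either, though its difference of 0.81 ± 0.43 did not pass (adjusted p = 0.207). The share of all probe sets without overlap between the 2 doses was not counted, so nothing is read from this.

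The calls at 24 h were repeated without the vehicle array titled 2 h. The changes were -0.51 (1373803_a_at, adjusted p = 2.53e-06) and -0.47 (1368924_at, adjusted p = 0.00653) for Ghr and -0.48, -0.67 and -0.58 for Igf1 (adjusted p up to 7.26e-06), and Igfbp3 1386881_at rose by 0.80 (adjusted p = 0.00192). The count of changed probe sets stayed at 6 of 12. The 2 Igf1 differences between the times also passed without it, at -0.26 (adjusted p = 0.034) and -0.27 (adjusted p = 0.0479).

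Of 10 tested genes of growth hormone receptor signalling (12 listed), 0 changed at 24 h by limma, beside 22.2% of the 11503 genes, and 3 had an unadjusted p under 0.05, beside 33.5% of genes. Cish, another STAT5 target, differed by -0.48 ± 0.21 there (adjusted p = 0.131). At 48 h, 2 rose and 1 fell, and these 3 of 10 lie near the 33.5% of all genes that changed. Jak2, the receptor's kinase, was higher by 0.63 ± 0.19 (adjusted p = 0.0124), Ptpn11, a phosphatase, by 0.21 ± 0.08 (adjusted p = 0.0377), and Bcl6, a repressor known in mouse liver to oppose STAT5, fell by 0.38 ± 0.06 (adjusted p = 1.38e-05). Stat5b differed by 0.07 ± 0.19 (adjusted p = 0.844). The Ptpn11 call was lost without any one of 6 arrays (vehicle replicates 2 and 3, 20 µM replicates 1, 3, 4 and 5), with adjusted p up to 0.0928, and under 3 other settings (no filter, median centring, no trend; up to 0.0623). The median of the list was -0.21 at 24 h and 0.06 at 48 h, beside 0.01 and 0.04 over all genes.

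Of 9 tested liver genes known to depend on the growth hormone pattern (11 listed), 3 fell at 24 h and 6 at 48 h, and none of the 9 rose, nor was any higher at an unadjusted p under 0.05. Of all genes, 9.93% were lower and 12.3% higher at 24 h. The shares at 48 h were 14.2% lower and 19.3% higher. With such shares, the lack of rises among 9 genes says little on its own. The share of all genes higher at an unadjusted p under 0.05 was not counted. At 48 h the falls were in Cyp2c12 (-2.77 ± 0.41, adjusted p = 2.55e-06), Cyp3a18 (-2.13 ± 0.07, adjusted p = 1.82e-20), Cyp2a2 (-1.92 ± 0.15, adjusted p = 8.13e-12) and Cyp2c11 (-1.84 ± 0.09, adjusted p = 1.15e-16), all cytochromes P450. Cyp2c11 is the main male-specific form in rat liver and Cyp2c12 the female-specific one, and probe sets of this family may hybridise with each other's transcripts. Cyp3a2 (-0.67 ± 0.22, adjusted p = 0.0224) and the transcription factor gene Onecut1 (-0.54 ± 0.18, adjusted p = 0.0264) fell as well. The Cyp3a2 call was lost without 20 µM replicate 4 (-0.54, adjusted p = 0.0884), and that of Onecut1 without any one of 4 arrays (20 µM replicates 3 and 5, vehicle replicates 1 and 2; adjusted p up to 0.0886) and with only the 2 groups in the fit (0.0588). At 24 h, Cyp3a18 (-0.79 ± 0.07), Cyp2a2 (-0.77 ± 0.15) and Cyp2c11 (-0.38 ± 0.09) fell (adjusted p of 6.21e-10 to 0.00208). The median change was -0.24 at 24 h and -0.67 at 48 h. For 4 of the 9, the 20 µM effect was lower at 48 h than at 24 h by the test of the difference, beside 3.69% of all genes whose effect differed in either direction.

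Of 10 other tested genes of the IGF system (12 listed), 2 were lower at each time, beside 9.93% of all genes lower at 24 h and 14.2% at 48 h, and none of the 10 was higher, beside 12.3% and 19.3%. Igf2bp3, an RNA-binding protein of IGF2 mRNA, changed by -1.27 ± 0.12 at 48 h (adjusted p = 8.80e-10) and by -0.60 ± 0.12 at 24 h (adjusted p = 0.000506). Htra1, a secreted protease that cleaves IGF binding proteins, changed by -0.33 ± 0.07 at 48 h (adjusted p = 0.000265) and by -0.21 ± 0.07 at 24 h (adjusted p = 0.022). The Htra1 call at 24 h was lost without 20 µM replicate 2 or 4 or vehicle replicate 5 (adjusted p up to 0.0945), with median centring (0.0545) and with only the 2 groups in the fit (0.114). The IGF1 receptor gene Igf1r differed by 0.50 ± 0.26 at 48 h (adjusted p = 0.177) and Igfbp4 by 0.09 ± 0.13 (adjusted p = 0.695). The list's median was 0.01 at 48 h and -0.05 at 24 h.

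Of 30 tested insulin signalling genes (32 listed), 4 rose and 3 fell at 24 h, and 7 rose and 3 fell at 48 h. These 7 and 10 of 30 lie near the shares of all genes that changed, 22.2% and 33.5%. Grb10, an adaptor that inhibits the insulin and IGF1 receptors, rose by 0.98 ± 0.13 at 24 h (adjusted p = 7.54e-07) and 0.82 ± 0.13 at 48 h (adjusted p = 6.45e-06). Trib3, a pseudokinase known as an ATF4 target, rose by 0.95 ± 0.11 at 24 h (adjusted p = 9.65e-08) and 1.04 ± 0.11 at 48 h (adjusted p = 5.80e-09). Grb14, a related adaptor, moved the other way, by -0.31 ± 0.08 at 24 h (adjusted p = 0.00426) and -0.58 ± 0.08 at 48 h (adjusted p = 4.69e-07). Pik3r1, the regulatory subunit of PI3-kinase, changed by -0.50 ± 0.17 at 24 h (adjusted p = 0.0412) and -0.48 ± 0.17 at 48 h (adjusted p = 0.0362), and Irs3 fell by 0.67 ± 0.20 at 48 h (adjusted p = 0.0121). The Pik3r1 call was lost without any one of 7 arrays at 24 h (20 µM replicates 1, 2 and 5, vehicle replicates 1, 2, 3 and 5; adjusted p up to 0.111) and under 4 other settings (no filter, both other normalizations, only the 2 groups; up to 0.0765). It was lost without any one of 7 at 48 h (20 µM replicates 1, 2, 3 and 4, vehicle replicates 2, 3 and 5; adjusted p up to 0.099), with no filter and with quantile normalization (up to 0.0554). Irs3 did not pass without vehicle replicate 4 (-0.55, adjusted p = 0.0529). Smaller rises were seen in Eif4ebp1 (0.35 at 24 h and 0.36 at 48 h) and Rictor (0.33 and 0.38). At 48 h Tsc1 rose by 0.42. The median of the list was 0.01 at 24 h and 0.03 at 48 h, close to that of all genes.

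Of 9 tested metabolic genes known to respond to insulin (11 listed), 5 fell at 24 h, beside 9.93% of all genes, and all 9 at 48 h, beside 14.2%. The largest changes at 48 h were those of Angptl4, a lipase inhibitor (-2.03 ± 0.13, adjusted p = 3.41e-14), and Pdk4, which holds back the oxidation of pyruvate (-1.48 ± 0.10, adjusted p = 1.90e-13). Gys2, liver glycogen synthase, changed by -1.23 ± 0.06 (adjusted p = 3.80e-16) and Pck1, an enzyme of glucose production, by -1.19 ± 0.20 (adjusted p = 1.43e-05). At 24 h the largest falls were those of Angptl4 (-0.97 ± 0.13), Gys2 (-0.94 ± 0.06), Pklr, liver pyruvate kinase (-0.78 ± 0.13) and Pdk4 (-0.51 ± 0.10), with adjusted p of 1.98e-12 to 0.000232. The list holds genes that insulin is known to raise (Gys2, Pklr, Srebf1, Fasn) and genes it is known to lower (Pck1, Pdk4, Ppargc1a), and both kinds fell at 48 h. Its remaining genes are not sorted here. The part of insulin signalling in these falls was not tested, and the insulin content of the medium is not stated in the labels. The median change was -1.16 at 48 h and -0.40 at 24 h.

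**Figure D5:**
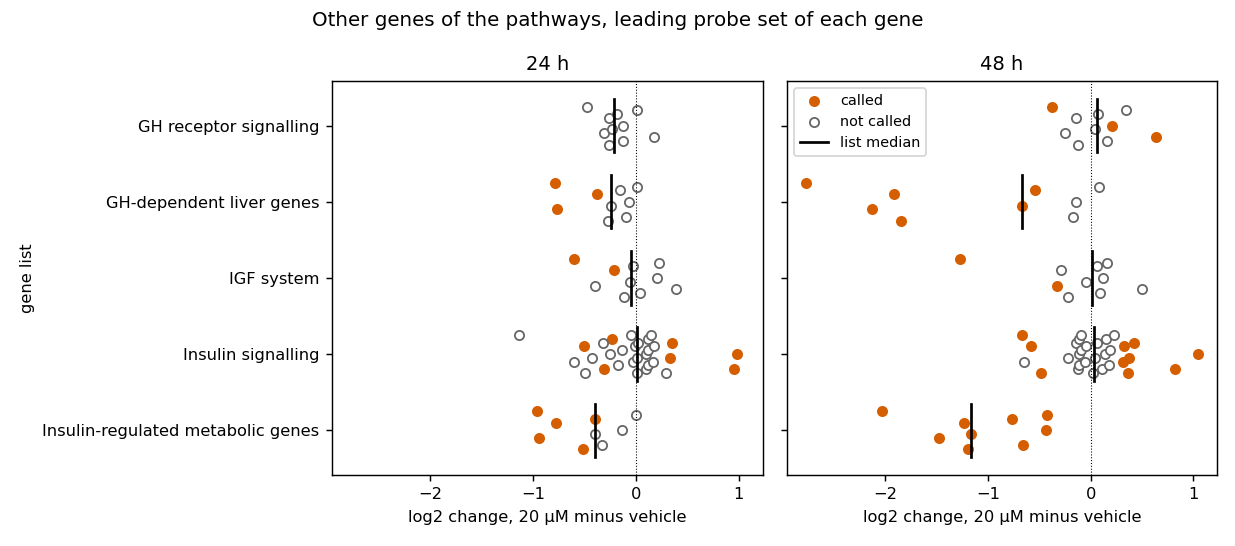
Log2 change at 20 µM minus vehicle (x axis) of each tested gene in 5 lists (rows) at 24 h (left) and 48 h (right). Filled points passed the test and vertical bars are list medians. The bars of the growth hormone dependent liver genes (-0.67) and the metabolic genes (-1.16) lie left of 0 at 48 h.

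The profiles most like those of the called genes over the 30 arrays are given as a description, since all arrays share the dose groups. Among 11328 genes, those nearest to Igf1 were Bhmt (Pearson r = 0.978), Lox (0.977) and Klkb1 (0.969), and those nearest to Ghr were Cideb (0.946), Khk (0.945) and Dhrs3 (0.944). All 6 fell at 20 µM at both times, with changes of -2.67 to -0.51. Igfbp3 had weaker likenesses, with Mphosph6 (0.78), Selenoh (0.777) and Pla2g12a (0.772), as had Igfbp2, with Kiaa1671 (0.739), Fryl (0.738) and Bmp2k (0.685).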

How the data were processed

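Total RNA of each culture was labelled as biotinylated cRNA and hybridised to 1 rat oligonucleotide array. The authors deposited MAS5 signals, a linear intensity for each probe set, per the labels' protocols (version not given in the sources used here). Between percentiles 2 and 98, the mean of every array was 1499.94. Array medians ran from 380 to 449, and average correlations within groups from 0.941 to 0.952. Of 31099 probe sets, 57 were controls. The platform annotation gave 1 symbol to 20832 probe sets, several to 436, and did not list 9780.

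Signals were floored at 16, which held for 3.86% of values, and log2 transformed without further normalization. A probe set was kept if 5 or more arrays had it above their own percentile 40 (21226), and the leading probe set of a gene is the kept one with the highest mean. The test was limma 3.58.1 (R 4.3.3) on all 30 arrays with a mean for each group, a trended eBayes and Benjamini-Hochberg adjustment over all kept probe sets within a comparison. Changes of untested genes are not given. The 10 genes, the gene lists and the tests were chosen with earlier results of these data known, and support nothing on their own. All 10 genes were named, with up to 4 changed genes of each list per time with the largest change and the 3 genes of highest correlation. A few others were named after their values had been seen. They were Cish, Stat5b, Igf1r, Igfbp4, Rictor, Tsc1, Grb14 at 24 h, and Eif4ebp1, Pik3r1, Cyp3a2 and Onecut1 at 48 h. The changed markers Fgb, Krt19, Cd68 and C1qa were also named in this way. Gene positions and promoters came from RefSeq tables of GRCr8. Array numbers follow the order of the groups, so dose and time cannot be told apart from position within a run of 6. Alternatives covered the floor, filter, normalization, spread model, weights, arrays fitted, runs as a block, probe set summary, threshold and each array left out. The procedure was tested on simulated data.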

Additional observations from a re-analysis of the deposited data

Results flagged for a closer look

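In 3 of 90 sets of 5 arrays, 1 array lay apart from the other 4 by the gap test, which chance alone gives in about 5% of sets. Irs2 had 10.21 in 20 µM replicate 3 at 24 h, and 10.51 to 10.61 in the other 4. Insr 1369051_at had 8.20 in 20 µM replicate 5 at 24 h, and 8.57 to 8.71 in the others. It also had 7.92 in 20 µM replicate 3 at 48 h, and 8.53 to 8.71 in the others.

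For Igf1, the 20 µM effect differed between the times by the test of the difference, by -0.27 for 1370333_a_at and by -0.29 for 1388469_at (48 h minus 24 h).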

How the results depend on the processing

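Of 69 single changes that passed the test, 52 kept their call and direction under each of the 12 or 13 alternatives that could be fitted for them and without each of the 30 arrays, among them all falls of Ghr and Igf1 at 20 µM against vehicle and the fall of the leading Ghr probe set at 0.8 µM and 48 h. Counted over 1 leading probe set per gene, changed members numbered 2 in place of 6 probe sets at 20 µM against vehicle at 24 h, 4 in place of 8 at 48 h, 2 and 2 in place of 5 and 6 against 0.8 µM at 24 and 48 h, 1 in place of 2 for the difference of effects between the times, and 0 in place of 2 between the times in vehicle. Fewer features entered that count. The difference of effects gave 1 probe set with median centring, 1 without the trend and 0 at adjusted p under 0.01, and 1 to 3 with single arrays left out, where 20 µM replicate 5 at either time gave 1. Between the times at 20 µM, 1 passed at adjusted p under 0.01, and 1 to 3 with single arrays left out, 1 without 20 µM replicate 5 at 48 h. The cause was not tested. Some differences at 24 h that did not pass changed sign: Igfbp2 was -0.0278 with array weights and ran from -0.0945 to 0.205 with single arrays left out, Irs2 from -0.0782 to 0.0318, Insr 1369051_at from -0.0378 to 0.117 and Insr 1392043_at from -0.00415 to 0.106. No paired analysis was possible because the labels carry no replicate numbers; the 5 runs of 6 array numbers, taken from the titles, were fitted as a block for array order instead, and there no single change crossed the threshold. The small number of arrays and the dim signals of Igfals, Socs2 and Irs1 limit what can be seen.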
